A study of Mus musculus with 8 samples.

Results

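The 37 genes of the mouse mitochondrial genome are described here in 2 fat depots and 2 genotypes. They were taken as every row of the deposited expression table whose gene name starts with mt-, 37 of 44422 genes, and comprised 13 protein-coding, 2 rRNA and 22 tRNA genes, all placed on chromosome MT. RNA-seq was made from inguinal white adipose tissue (iWAT) and brown adipose tissue (BAT) of male C57BL/6 mice, 10 weeks old, kept at 22 °C. WT mice carried H1.2 flox/flox alleles without Cre, and H1.2AKO mice carried the same floxed alleles with adiponectin-Cre, which deletes the linker histone gene H1.2 in adipocytes and leaves the other cells of the depot intact. Each of the 4 groups had 2 libraries, and each library was a pool of several mice (3 per the series notes, 2 per the methods), so a p-value measures the spread between pools. The sources do not state whether the pools of both depots came from the same mice. Levels are in FPKM, reads scaled to gene length and library size, so levels of different genes can be set side by side per length.

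Mitochondrial DNA is a small circle that is copied into long transcripts from both strands, most genes lying on one strand. The tRNAs sit between the mRNAs and rRNAs and are cut out of the transcript, which frees the other RNAs. The 13 proteins are all subunits of the respiratory chain and ATP synthase, the rRNAs and tRNAs serve only the ribosome inside the organelle, and every other mitochondrial protein is made from nuclear genes. BAT is rich in mitochondria and burns fuel for heat through Ucp1, whereas iWAT mostly stores fat and can acquire beige adipocytes. The libraries were made from RNA bound by poly-T beads, and most mitochondrial mRNAs carry short poly(A) tails while mature tRNAs carry none. The fragments selected for sequencing were several times longer than a tRNA gene. A level of a tRNA gene therefore cannot be read as the amount of mature tRNA.

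Pieces of mitochondrial DNA also lie in the nuclear chromosomes, and some are near-identical to the original. The sequences below, taken from GENCODE vM21 (GRCm38), show the closest case and 2 more distant ones. Each pair gives bases 61 to 120 of the gene and the aligned bases of a nuclear copy, 5′ to 3′, with the bases that differ in capitals.
mt-Co2: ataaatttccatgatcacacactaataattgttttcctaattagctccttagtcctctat
Gm28661: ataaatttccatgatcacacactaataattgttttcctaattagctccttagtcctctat
mt-Cytb: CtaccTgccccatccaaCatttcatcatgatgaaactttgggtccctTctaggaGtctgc
Gm11410: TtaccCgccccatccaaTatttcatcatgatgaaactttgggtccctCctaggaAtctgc
mt-Nd6: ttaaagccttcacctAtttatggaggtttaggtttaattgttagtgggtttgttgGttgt
Gm11408: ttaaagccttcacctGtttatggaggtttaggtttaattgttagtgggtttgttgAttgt
The window of mt-Co2 (MT, 7073 to 7132, + strand) had 0 differences from Gm28661 (chromosome 1, 24615446 to 24615505, - strand), and the windows of mt-Cytb and mt-Nd6 had 5 and 2 differences from copies on chromosome 4 (80004049 to 80004108 on the + strand and 80003795 to 80003854 on the - strand). The pair of identical windows shows that no read lying within them can be placed on one gene rather than the other.

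Annotated pseudogenes on chromosome 1 between 24611535 and 24616197 (- strand) matched pieces of MT 6390 to 11042, a span of 4653 bases, in the same order and at the same distances but for 1 base before the copy of mt-Nd4l. Only the pseudogenes were aligned, and the bases between them, which on MT hold mt-Ts1, mt-Td, mt-Tk, mt-Tg, mt-Tr and most of mt-Atp8, were not compared here. Gm28661 matched mt-Co2 at 100% over 681 bases, Gm10925 matched mt-Atp6 at 100% over 678, Gm28437 matched mt-Co3 at 100% over 783, Gm10222 matched mt-Nd4l at 100% over 294 and Gm28438 matched mt-Nd3 at 99.7% over 345. Gm28439 covered the first 876 bases of mt-Nd4 and Gm29216 the last 483 bases of mt-Co1. Of the 13 mRNAs, 6 thus lay inside the span (mt-Co2, mt-Atp8, mt-Atp6, mt-Co3, mt-Nd3 and mt-Nd4l), 2 crossed an edge of it (mt-Co1 and mt-Nd4) and 5 lay outside (mt-Nd1, mt-Nd2, mt-Nd5, mt-Nd6 and mt-Cytb). For mt-Atp8 an annotated copy covers only the 43 bases it shares with mt-Atp6. The 6 mRNAs inside the span are given apart from the other 7 in what follows, a division made after their levels had been seen. How the reads of near-identical copies were assigned is not given in the sources used here, so the levels of these 6 mRNAs and of their copies are uncertain, as are those of the copied parts of mt-Nd4 (63.6% of its length) and mt-Co1 (31.3%). Less close copies lay on other chromosomes. Gm13340 on chromosome 2 matched all 1545 bases of mt-Co1 at 97.6%, with 1.87 to 19.4 FPKM. Gm13339 on chromosome 2 matched 510 bases of mt-Nd2 at 96.7%, with 0.729 to 7.80 FPKM. Gm4076 on chromosome 13 matched 954 bases of mt-Nd5 at 95.2%, with 0 to 0.397 FPKM.

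The 8 libraries held 16118634 to 17480325 reads over the listed genes. Hist1h1c, the gene of H1.2, was at 23.7 and 24.2 FPKM in WT iWAT and at 2.26 and 1.73 after deletion. In BAT its levels were 36.8 and 43.3 FPKM in WT and 0.177 and 1.97 in H1.2AKO mice. Ucp1 was at 0.547 to 3.41 FPKM in iWAT and 2490 to 2856 in BAT, and all 8 brown adipocyte markers were called higher in BAT in each genotype. Of 8 general adipocyte markers, all present in every library, 4 had higher and 4 lower values in BAT in each genotype. Adipoq was at 976 to 1270 FPKM in iWAT and 707 to 944 in BAT, and Lep at 55.0 to 74.1 and 7.35 to 22.4. All 10 B and T cell markers were detected in every iWAT library (summed level 332 to 408 FPKM against 5.06 to 7.24 in BAT, where Cd22 was at 0 in 1 library). The summed level of 15 skeletal muscle markers was 189.9 FPKM in WT iWAT replicate 1 and 3032 to 4625 in the other iWAT libraries, and 121.7 in H1.2AKO BAT replicate 1 and 1825 to 3883 in the other BAT libraries. In bulk tissue, more cells of a type and more RNA per cell cannot be told apart.

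Mitochondrially encoded genes took a far larger part of the RNA in BAT than in iWAT. Their share of all FPKM was 13.5% and 11.1% in WT iWAT, 11.5% and 11.4% in H1.2AKO iWAT, 33.1% and 31.4% in WT BAT and 32.6% and 34.3% in H1.2AKO BAT. The depots did not overlap, and the mean was 32.9% ± 1.2 (SD, n = 4) in BAT against 11.8% ± 1.10 (SD, n = 4) in iWAT, 2.77 times as much (exact 2-sided permutation test, p = 0.0286, the smallest p that 4 against 4 libraries can give). Protein-coding genes made up most of it, at 10.3% to 12.5% of FPKM in iWAT and 28.4% to 30.6% in BAT. The rRNA genes took 0.121% to 0.170% in iWAT and 1.09% to 1.60% in BAT, and the tRNA genes took 0.589% to 0.840% in iWAT and 1.92% to 2.47% in BAT. Counted as reads, the share ran from 5.40% (95% Wilson interval 5.38% to 5.41%) to 6.62% (6.61% to 6.63%) in iWAT and from 16.78% (16.76% to 16.80%) to 18.50% (18.48% to 18.52%) in BAT. These intervals cover counting error only.

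**Figure D1:**
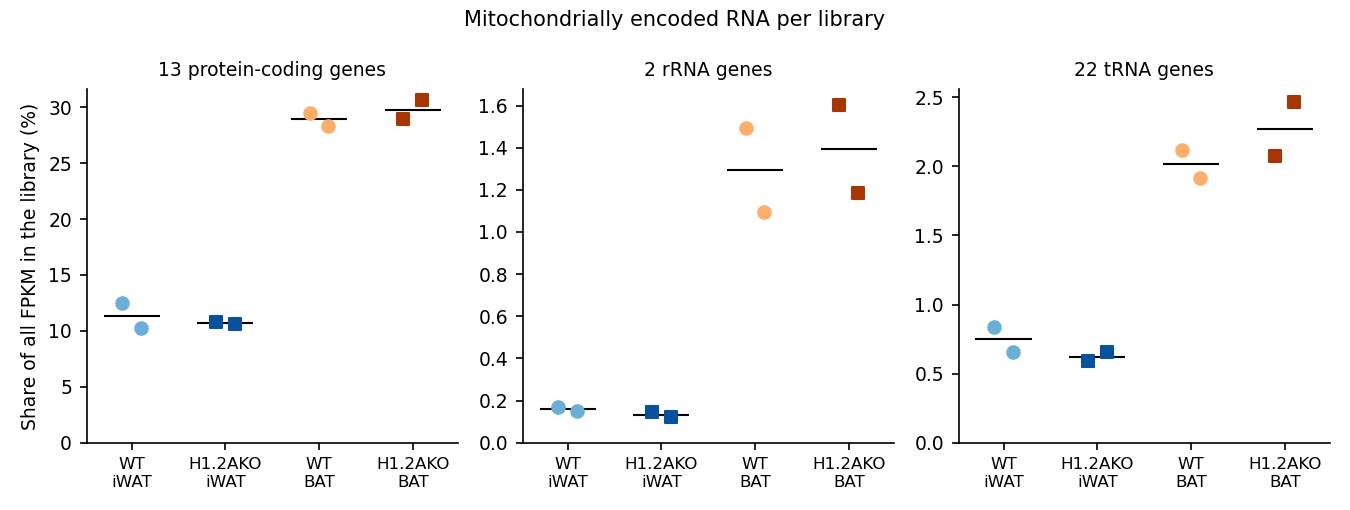
Share of all FPKM (%) taken by the protein-coding, rRNA and tRNA genes of mitochondrial DNA, with 1 point per library, 2 libraries per group, and a line at the group mean. In each class every BAT library lay above every iWAT library, and the protein-coding genes went from 10.3% to 12.5% in iWAT to 28.4% to 30.6% in BAT.

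To find which of the genes carried this difference, BAT was set against iWAT within each genotype, and all 13 mRNAs and both rRNAs were called higher in BAT in WT and in H1.2AKO mice. The fit was limma on log2(FPKM + 0.5), with Benjamini-Hochberg adjustment over all genes tested and an adjusted p under 0.05 as the threshold. These 15 genes all passed the minimum of 0.5 FPKM in iWAT alone. In WT mice 31 of 34 tested members were called higher and 0 lower, where 25.3% of all 14094 tested genes were called higher and 28.1% lower. In H1.2AKO mice 29 of 34 were called higher and 0 lower, where 26.2% of 14079 genes were called higher and 27.9% lower. These counts include tRNA genes that reached the minimum only through BAT, whose direction the minimum fixed, namely mt-Tv in WT and mt-Tm, mt-Tq and mt-Ta in H1.2AKO mice. Over all tested genes the median log2 fold change was -0.01 in WT and -0.02 in H1.2AKO mice, against 1.89 and 2.15 for the 7 mRNAs that were not inside the chromosome 1 span. The scaling matters for the level of these values. With the total of the reads as denominator the median of all genes shifted to -0.42 and -0.50, and the WT calls then split into 1709 genes higher and 7073 lower in place of 3571 and 3965, while 28 members were called in each genotype. Adjusted for the muscle marker level, 29 members were called in WT and 28 in H1.2AKO mice. Of all genes, 6860 of 14094 and 6869 of 14079 were then called in either direction. The part of the B and T cells, whose markers were lower in BAT, was not tested. Relative to the median of all genes, the 7 mRNAs were at 1.91 in WT as deposited and at 1.86 with that denominator.

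The 7 mRNAs outside the chromosome 1 span or across its edge were among the most abundant RNAs and differed little between libraries of 1 depot. mt-Co1, the catalytic subunit of cytochrome c oxidase, was the highest, at 15481 and 11690.2 FPKM in WT iWAT, 12338 and 12352 in H1.2AKO iWAT, 54634 and 46051 in WT BAT and 52551 and 57315 in H1.2AKO BAT. Its depots did not overlap, and the log2 fold change of BAT over iWAT was 1.90 ± 0.27 (standard error) in WT (limma, adjusted p = 0.00138) and 2.15 ± 0.28 in H1.2AKO mice (limma, adjusted p = 7.7e-04). mt-Cytb, the only subunit of complex III made in the organelle, was at 8249, 5974, 6414 and 6552 FPKM in iWAT and 31709, 29650.0, 32099 and 33333 in BAT, each in the order WT replicates 1 and 2 and H1.2AKO replicates 1 and 2. Its log2 fold change was 2.13 ± 0.24 in WT (limma, adjusted p = 4.8e-04). Without the minimum on low values, which leaves these fold changes as they are and alters the moderated variance, the calls of mt-Co1 and mt-Cytb were lost in both genotypes and that of mt-Nd1 in WT.

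The other 5 of these mRNAs encode subunits of complex I, the NADH dehydrogenase that feeds electrons into the chain. In the same order of libraries, mt-Nd1 was at 6083, 4541, 4858 and 5267 FPKM in iWAT and 20434, 17645, 19713.5 and 21752 in BAT. mt-Nd2 was at 4109, 3149, 3119 and 3154 FPKM in iWAT and 17931, 16012, 18049 and 18777 in BAT, and its log2 fold change of 2.24 ± 0.20 in WT was the highest of the 7 (limma, adjusted p = 2.0e-04). mt-Nd4 lay at 2428 to 3270.3 FPKM in iWAT and 10427 to 12508 in BAT. mt-Nd5 was at 1945, 1564, 1539 and 1649 FPKM in iWAT and 6407, 5926, 6697 and 7426 in BAT. mt-Nd6, the only mRNA encoded on the other strand, was at 2252, 1851, 1815 and 1984 FPKM in iWAT and 5651, 5818, 5698 and 6323 in BAT. Its log2 fold change of 1.49 ± 0.16 in WT (limma, adjusted p = 4.0e-04) was the lowest of the 7. No strand was marked in the library protocol, so reads of mt-Nd6 cannot be told apart from reads of the opposite strand at MT 13552 to 14070, which includes 14 bases shared with mt-Nd5.

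**Figure D2:**
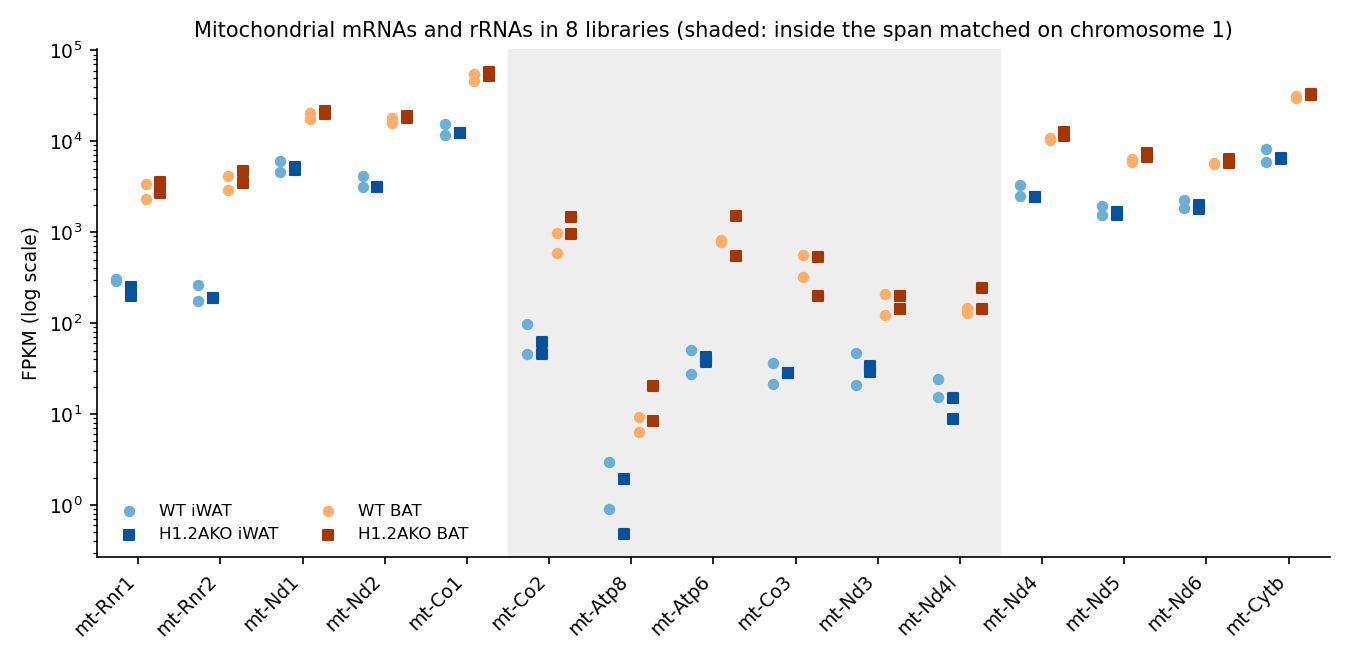
Level in FPKM (log axis) of the 2 rRNAs and 13 mRNAs in mitochondrial gene order, with 1 point per library and 2 libraries for each of the 4 groups, and with the 6 mRNAs inside the chromosome 1 span shaded. BAT points lie above iWAT points for every gene, and the shaded mRNAs lie between 0.481 and 1505 FPKM while the other 7 lie between 1539 and 57315.

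Proportions among the 7 mRNAs differed less between the depots than their levels. mt-Co1 stood at 7.48 to 8.02 times mt-Nd5 in iWAT and 7.72 to 8.53 times in BAT, which overlap. mt-Nd6 stood at 1.16 to 1.2 times mt-Nd5 in iWAT and 0.851 to 0.982 times in BAT. mt-Nd2 made up 9.40% to 10.0% of the FPKM of the 13 mRNAs in iWAT and 11.7% to 12.1% in BAT, and mt-Nd1 made up 14.5% to 15.7% and 13.2% to 13.6%. These ratios are descriptions with no test, chosen after their values had been seen.

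The 6 mRNAs inside the chromosome 1 span were listed at levels far below those of their neighbours on the same transcript. Their summed FPKM was 0.422% to 0.624% of that of the other 7 in iWAT and 1.55% to 1.98% in BAT. mt-Co2, a core subunit of cytochrome c oxidase, was at 96.8 and 45.5 FPKM in WT iWAT, 46.2 and 62.1 in H1.2AKO iWAT, 592 and 983 in WT BAT and 1487 and 949 in H1.2AKO BAT. It thus stood at 0.374% to 0.625% of mt-Co1 in iWAT and 1.08% to 2.83% in BAT. mt-Co3, the third core subunit of the same enzyme, was at 36.9, 21.6, 28.5 and 28.3 FPKM in iWAT and 563, 325, 538 and 200.5 in BAT. mt-Atp6, a subunit of the proton channel of ATP synthase, was at 50.4, 27.8, 37.7 and 42.2 FPKM in iWAT and 783, 831, 553 and 1505 in BAT.

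The complex I subunits in the span showed the same low levels. mt-Nd3 was at 47.0, 20.7, 28.7 and 33.9 FPKM in iWAT and 209, 122, 142 and 199.9 in BAT. mt-Nd4l was at 24.4, 15.5, 8.78 and 15.2 FPKM in iWAT and 128, 148, 143 and 245 in BAT. mt-Nd4l and mt-Nd4 overlap by 7 bases on one RNA, and mt-Nd4l stood at 0.359% to 0.745% of mt-Nd4 in iWAT and 1.18% to 1.96% in BAT. mt-Atp8, the other mitochondrial subunit of ATP synthase, was the lowest mRNA, at 2.94, 0.912, 1.92 and 0.481 FPKM in iWAT and 9.30, 6.29, 8.44 and 20.4 in BAT, or 2 to 12 reads and 20 to 61 reads. mt-Atp8 and mt-Atp6 share the 43 bases below on one RNA (MT 7927 to 7969, + strand), so reads there belong to both.
mt-Atp8 and mt-Atp6: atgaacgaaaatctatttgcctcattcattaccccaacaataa

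All 6 were called higher in BAT in each genotype. The log2 fold changes in WT mice ran from 1.89 for mt-Atp8 (± 0.63, limma, adjusted p = 0.0414) to 4.41 for mt-Atp6 (± 0.47, limma, adjusted p = 3.9e-04), with a median of 3.15, and the median was 3.74 in H1.2AKO mice. The WT call of mt-Atp8 rested on few reads and was lost with either WT BAT library or WT iWAT replicate 2 left out (log2 fold changes of 2.15, 1.62 and 1.25) and with limma-voom on the reads (1.68). That call was also lost with a pseudocount of 0.1, without the minimum on low values, with the replicate block and with robust moderation. It was lost too with levels scaled to nuclear genes, with the muscle level as a covariate and with the total of the reads as denominator. The log2 fold changes in these settings were 1.52 to 2.14. Copies of these 6 mRNAs on chromosome 1 were also listed at higher levels in BAT. Gm28661 was at 81.9, 35.2, 80.7 and 63.9 FPKM in iWAT and 262, 231, 1336 and 438 in BAT. In WT mice 6 of the 7 copies in the span were called higher in BAT and in H1.2AKO mice all 7, beside the 25.3% and 26.2% of all genes called higher. The 5 copies that match nearly a whole gene summed to 1.2 to 1.62 times the FPKM of those 5 genes in iWAT and 0.439 to 0.795 times in BAT. With the reads of each copy added to its gene, the 6 mRNAs were still all called higher in BAT, with a median log2 fold change of 2.82 in WT and 3.31 in H1.2AKO mice. No reads were added to mt-Atp8, while mt-Co1 and mt-Nd4 had reads of their copies added too. Reads listed under neither a gene nor its copy are not restored by this sum. The spread inside a depot was also wider for these mRNAs. The highest library stood at 1.71 to 6.11 times the lowest in iWAT and 1.71 to 3.24 times in BAT, against 1.24 to 1.38 times and 1.12 to 1.25 times for the other 7. The part of read assignment in these levels was not tested.

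Both rRNAs differed more between the depots than the 7 mRNAs outside or across the edge of the span. mt-Rnr1, the RNA of the small ribosomal subunit, was at 306, 290.4, 249 and 197 FPKM in iWAT and 3428, 2292, 3594 and 2712 in BAT, a log2 fold change of 3.23 ± 0.24 in WT (limma, adjusted p = 9.4e-05) and 3.81 ± 0.24 in H1.2AKO mice (limma, adjusted p = 4.9e-05). mt-Rnr2, the RNA of the large subunit, was at 263, 177, 190.1 and 187 FPKM in iWAT and 4162, 2877, 4667 and 3501 in BAT, a log2 fold change of 4.0 ± 0.26 in WT (limma, adjusted p = 6.2e-05) and 4.42 ± 0.26 in H1.2AKO mice (limma, adjusted p = 4.2e-05). The sum of both rRNAs was 1.15% to 1.49% of the sum of the 7 mRNAs in iWAT and 3.93% to 5.65% in BAT, and these ranges do not overlap. mt-Rnr2 stood at 0.610 to 0.95 times mt-Rnr1 in iWAT and 1.21 to 1.30 times in BAT. rRNA is normally far more abundant than mRNA in mitochondria, and these libraries hold only what the poly-T beads retained, so the ratio describes that fraction. The part of poly(A) retention in the difference was not tested.

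Of the 22 tRNA genes, 19 had a mean of at least 0.5 FPKM over the libraries compared and could be tested. In WT mice 16 of them were called higher in BAT and in H1.2AKO mice 14, and 0 were called lower, beside the 25.3% and 26.2% of all genes called higher. The WT count ran from 9, without WT iWAT replicate 2 or without WT BAT replicate 1, to 17 with 1 library left out, and the H1.2AKO count from 12 to 14. A gene that passes this minimum only through BAT had to be higher there, which held for 1 of the 16 and 3 of the 14, so the counts do not stand for all 22. mt-Tv was among the 16 with 0 reads in both WT iWAT libraries and only 3 reads in the WT BAT libraries together, and no fold is given for it. The median log2 fold change of the tested tRNA genes other than mt-Tv was 2.41 in WT. In H1.2AKO mice the median was 2.78, with mt-Tq and mt-Tm, which had 0 reads in both iWAT libraries, at their bounds. The medians also hold genes that reached the minimum only through BAT, mt-Ts1 in WT and mt-Tq, mt-Tm and mt-Ta in H1.2AKO mice. They therefore do not stand for all 22 genes either. Against a floor of 3 reads per iWAT library, mt-Tq was at least 8.39-fold and mt-Tm at least 15.8-fold higher in BAT of H1.2AKO mice.

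The genes with the highest and the lowest levels are shown with their sequences from GENCODE vM21 (GRCm38), with the anticodon in capitals. The first 4 had the highest mean level over the 8 libraries, and the last 2 the lowest.
mt-Tp: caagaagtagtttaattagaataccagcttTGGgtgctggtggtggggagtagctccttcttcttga
mt-Tc: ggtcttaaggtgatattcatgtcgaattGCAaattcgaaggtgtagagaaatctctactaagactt
mt-Tn: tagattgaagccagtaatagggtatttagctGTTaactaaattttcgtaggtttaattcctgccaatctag
mt-Tl2: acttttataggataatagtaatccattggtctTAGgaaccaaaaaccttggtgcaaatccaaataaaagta
mt-Tg: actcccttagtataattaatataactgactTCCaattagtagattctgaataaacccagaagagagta
mt-Tf: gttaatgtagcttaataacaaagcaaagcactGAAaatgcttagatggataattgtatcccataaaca
mt-Tp, the proline tRNA on the strand opposite mt-Cytb (MT 15356 to 15422), took 57.6% to 70.8% of the reads of all tRNA genes in iWAT and 42.9% to 48.8% in BAT. It was at 1671 and 1439.9 FPKM in WT iWAT, 1159.9 and 1204 in H1.2AKO iWAT, 4932 and 4447 in WT BAT and 5271 and 5635 in H1.2AKO BAT. Its log2 fold change was 1.59 ± 0.14 in WT (limma, adjusted p = 2.0e-04) and 2.20 ± 0.14 in H1.2AKO mice (limma, adjusted p = 5.9e-05).

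The next tRNA genes were also higher in BAT. mt-Tc, for cysteine, was at 182 to 386 FPKM in iWAT and 1545 to 2366 in BAT, a log2 fold change of 2.67 ± 0.37 in WT (limma, adjusted p = 0.00118). mt-Tn, for asparagine, lay at 142 to 264 FPKM in iWAT and 613 to 1216 in BAT. mt-Tl2, one of both leucine tRNAs, lay at 95.6 to 196 FPKM in iWAT and 572 to 1153 in BAT. At the other end, mt-Tf, for phenylalanine and the first gene of the long transcript, had 0 reads in all 8 libraries, which allows up to 3 reads in each. mt-Tg, for glycine, had 1 read in a single BAT library. mt-Te, for glutamate, was named after its values had been seen. It was at 36.2, 38.4, 40.3 and 39.8 FPKM in iWAT and 698, 769, 600.0 and 709 in BAT, a log2 fold change of 4.28 ± 0.11 in WT (limma, adjusted p = 5.3e-06) and 4.01 ± 0.11 in H1.2AKO mice (limma, adjusted p = 7.9e-06). mt-Nd6, which abuts it on the same strand, differed by 1.49 and 1.66, so that mt-Te went from 1.61% to 2.22% of mt-Nd6 in iWAT to 10.5% to 13.2% in BAT. The summed level of the 22 tRNA genes, by contrast, was 5.50% to 6.77% of the 7 mRNAs in iWAT and 6.88% to 8.22% in BAT. With no strand marked, reads of mt-Te, mt-Tp, mt-Tc and mt-Tn, all on the - strand, cannot be told apart from reads of the opposite strand. The ratio of mt-Te to mt-Nd6 therefore cannot be read as a property of 1 strand.

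**Figure D3:**
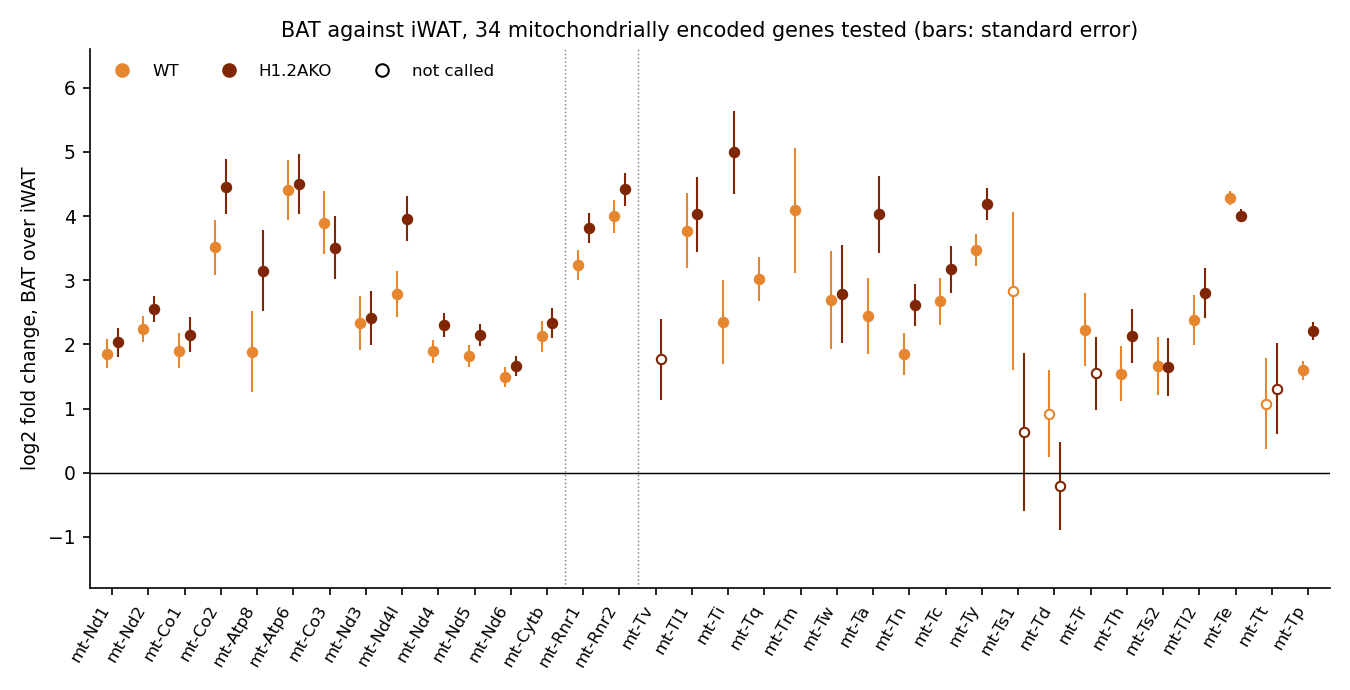
Log2 fold change of BAT over iWAT (on log2(FPKM + 0.5)) with its standard error for the 34 tested genes, in WT and in H1.2AKO mice, with open points where the adjusted p was not under 0.05 and dotted lines between mRNAs, rRNAs and tRNAs. mt-Tv in WT and mt-Tq and mt-Tm in H1.2AKO mice are left out because their iWAT libraries held 0 reads. All mRNAs and rRNAs are called in both genotypes, from 1.49 for mt-Nd6 to 4.41 for mt-Atp6 in WT.

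The nuclear genes whose proteins join the same complexes were also higher in BAT. In WT mice all 36 nuclear subunits of complex I, all 4 of complex II, all 9 of complex III, 13 of 15 of complex IV and 13 of 16 of complex V were called higher, with the same counts in H1.2AKO mice. Of all genes tested, 25.3% were called higher and 28.1% lower in WT and 26.2% and 27.9% in H1.2AKO mice. In H1.2AKO mice 2 subunits of complex V were called lower, Atp5g1 (-1.74) and Atp5g3 (-0.47), both encoding the c subunit of the ATP synthase ring and named after their values had been seen. Atp5g1 was at 1.29 and 3.62 FPKM in H1.2AKO BAT and 5.28 and 6.37 in WT BAT. The lowest value was in H1.2AKO BAT replicate 1, the BAT library with the lowest muscle markers. In WT mice Atp5g1 differed by -0.39 and was not called, and the part of muscle was not tested. The median log2 fold change of the nuclear complex I subunits was 1.78 in WT, beside 1.49 to 2.24 for mt-Nd1, mt-Nd2, mt-Nd4, mt-Nd5 and mt-Nd6. For complex III the nuclear median was 2.01 beside 2.13 for mt-Cytb, and for complex IV 2.02 beside 1.90 for mt-Co1. For complex V it was 1.66, and both mitochondrial subunits lie in the chromosome 1 span. Among the nuclear genes, Ndufv1, the NADH-binding subunit of complex I, differed by 2.67, Uqcrc1 of complex III by 2.80 and Atp5b, the catalytic subunit of ATP synthase, by 2.24. Cox7a1, a subunit used in muscle and brown fat, differed by 5.83 ± 0.26 (limma, adjusted p = 2.3e-05), the most of the listed genes of complex IV. Cox4i2, an alternative subunit of complex IV, was lower in BAT of WT mice by -0.66 ± 0.19 (limma, adjusted p = 0.0252), and its value in H1.2AKO mice was 0.40 and not called.

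**Figure D4:**
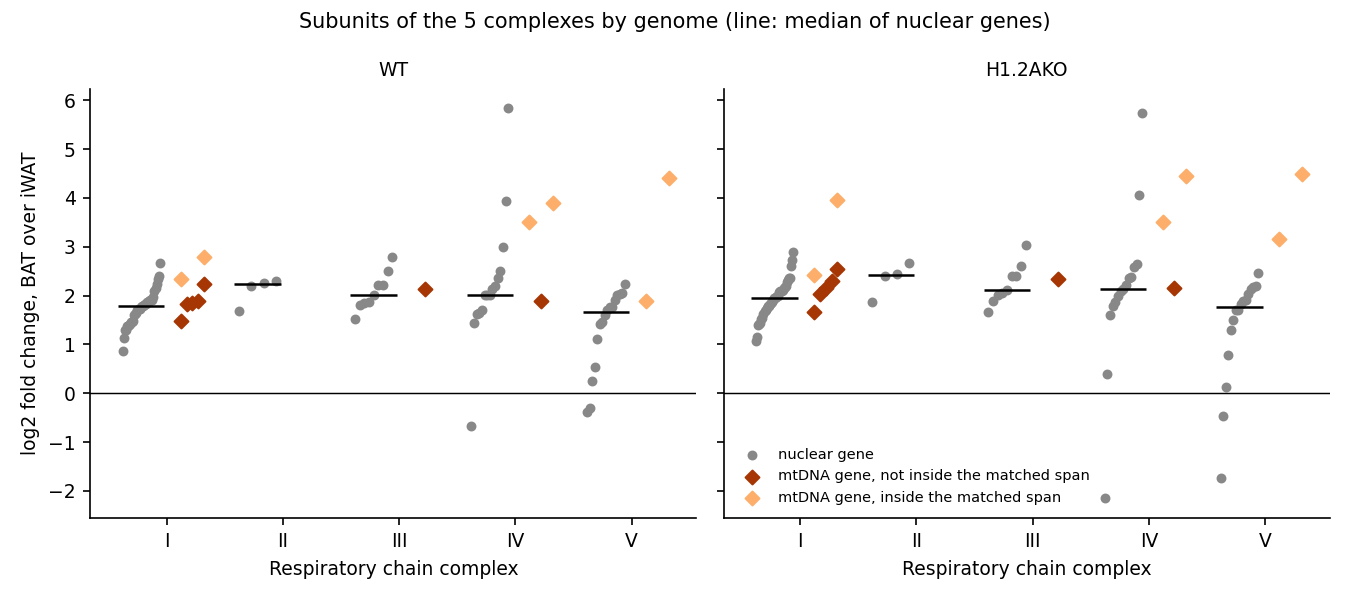
Log2 fold change of BAT over iWAT for subunits of the 5 respiratory chain complexes, in WT (left) and H1.2AKO mice (right), with nuclear genes in grey, their median as a line and mitochondrial genes as diamonds. The mitochondrial genes that are not inside the matched span lie within the range of the nuclear subunits of their complex (1.49 to 2.24 beside a nuclear median of 1.78 in complex I of WT mice), and mt-Atp6 lies above the nuclear genes of complex V at 4.41.

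Genes that act on mitochondrial DNA and RNA differed less. Of 31 genes for transcription and RNA processing, 24 were called higher and 1 lower (Mterf1b, -0.59) in WT mice, with a median of 0.79. Lrpprc, which stabilises mitochondrial mRNAs, differed by 1.76 and Fastkd1, which binds mitochondrial RNA, by 1.83. Of 22 mitochondrial aminoacyl-tRNA synthetases and related enzymes, which load the tRNAs with amino acids, 20 were called higher and 0 lower, with a median of 0.82. Of 11 tested genes for replication and nucleotide supply, 2 were called higher, Peo1 (the helicase, 1.44) and Mgme1 (0.84), and 2 lower, Tk2 (-0.72) and Dguok (-0.41), with a median of -0.01. Both counts are smaller shares than the 25.3% and 28.1% of all genes called higher and lower, and nothing particular to this list is read from them. Of 9 regulators of mitochondrial biogenesis, 4 were called higher and 1 lower (Nrf1, -0.42), with a median of 0.25. Among those called higher were the coactivators Ppargc1a (3.23) and Ppargc1b (3.02) and the nuclear receptor Esrra (1.96). Mterf1b, Dguok and Nrf1 were named after their values had been seen.

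Whether deletion of H1.2 in adipocytes altered mitochondrial transcripts was asked within each depot, and no member was called. In iWAT 0 of 33 tested members passed the threshold, in BAT 0 of 35 and for the interaction of depot and genotype 0 of 35 (limma, adjusted p under 0.05), where 0% of all genes tested were called in each comparison. An unadjusted p under 0.05 was reached by 3 members in iWAT (mt-Tp, mt-Ti and mt-Tq), by 0 in BAT and by 3 for the interaction, and by 863, 1631 and 839 of all genes tested. With limma-voom on the reads 0 members were called in each comparison, and of all genes 0 in iWAT, 24 of 13190 in BAT and 0 for the interaction. These counts do not show that the genotypes had equal levels. The deleted gene Hist1h1c itself was not called, at -3.30 ± 0.53 in iWAT (limma, adjusted p = 0.346) and -4.97 ± 0.53 in BAT (limma, adjusted p = 0.0784).

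In iWAT the 7 mRNAs had log2 fold changes of -0.23 (mt-Nd4) to -0.06 (mt-Nd1) for H1.2AKO against WT, with a median of -0.12 and standard errors of 0.17 to 0.31, none called. WT iWAT replicate 1 held the highest iWAT level of all 7, and the genotypes overlapped for 6 of them and not for mt-Nd4. Without that library the median was 0.04. It was also the iWAT library with the lowest muscle markers, and with the muscle level as a covariate the median was -0.08. Libraries of the genotypes did not overlap for mt-Nd4l, at 24.4 and 15.5 FPKM in WT and 8.78 and 15.2 in H1.2AKO iWAT, with a log2 fold change of -0.73 ± 0.36 (limma, adjusted p = 0.872). Over the 13 mRNAs 2 were lower without overlap and 0 higher, where 20.5% of all tested genes were lower and 16.7% higher in this way. The rRNAs had values of -0.43 ± 0.24 (mt-Rnr1, limma, adjusted p = 0.911) and -0.19 ± 0.26 (mt-Rnr2, limma, adjusted p = 0.992). For mt-Rnr1 both H1.2AKO iWAT libraries lay below both WT iWAT libraries, and for mt-Rnr2 the genotypes overlapped.

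In BAT the 7 mRNAs had log2 fold changes of 0.07 (mt-Nd6) to 0.19 (mt-Nd5), with a median of 0.13 and standard errors of 0.16 to 0.25, none called. H1.2AKO BAT replicate 2 held the highest BAT level of all 7. For 4 of the 13 mRNAs both H1.2AKO libraries lay above both WT libraries and for 0 below, where 22.4% of all tested genes were higher in this way and 18.9% lower. The median was 0.05 with the total of the reads as denominator, with mt-Nd6 at -0.01, and 0.01 with the muscle level as a covariate. The rRNAs had values of 0.16 ± 0.23 (mt-Rnr1, limma, adjusted p = 0.830) and 0.22 ± 0.26 (mt-Rnr2, limma, adjusted p = 0.766), and their libraries overlapped. For the nuclear subunits of complex I the medians were -0.01 in iWAT and 0.16 in BAT, and 0 nuclear subunits of any complex were called in either depot. Single subunits lay far from these medians, and Cox6a2, the muscle form of a complex IV subunit (named after its values had been seen), had the widest values, 1.78 in iWAT and -3.37 in BAT. It was lowest in WT iWAT replicate 1 (2.35 FPKM) and H1.2AKO BAT replicate 1 (1.47 FPKM), the libraries with the lowest muscle markers. The part of muscle in the Cox6a2 values was not tested.

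**Figure D5:**
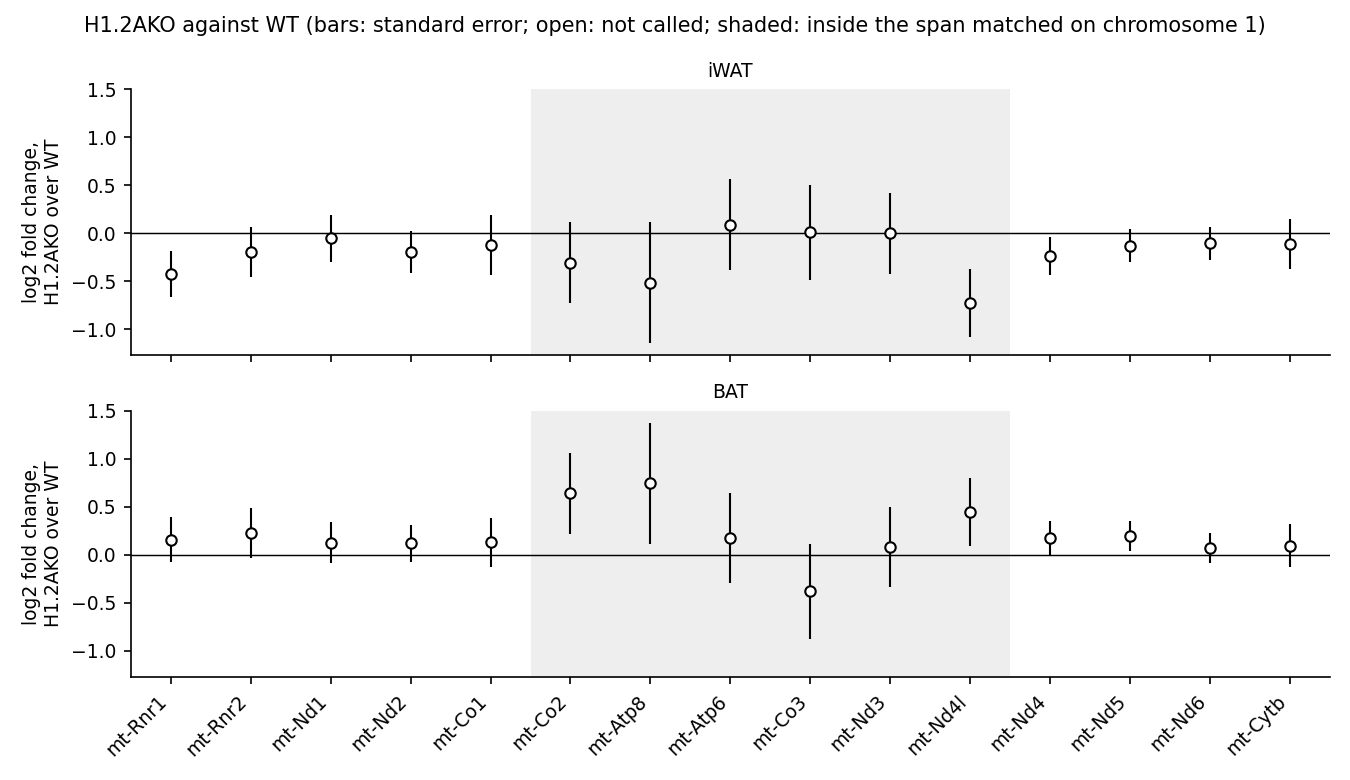
Log2 fold change of H1.2AKO over WT (on log2(FPKM + 0.5)) with its standard error for the 2 rRNAs and 13 mRNAs in mitochondrial gene order, in iWAT (top) and BAT (bottom), with the 6 mRNAs inside the chromosome 1 span shaded. No gene was called, and the 7 unshaded mRNAs lie between -0.23 and -0.06 in iWAT and between 0.07 and 0.19 in BAT.

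Among the tRNA genes, mt-Tp had the most reads and a log2 fold change of -0.39 ± 0.15 in iWAT (limma, adjusted p = 0.793) and 0.22 ± 0.14 in BAT (limma, adjusted p = 0.563). Its 2 H1.2AKO iWAT libraries lay below both WT iWAT libraries and its 2 H1.2AKO BAT libraries above both WT BAT libraries. Of the 22 tRNA genes, 4 were lower without overlap in iWAT and 1 (mt-Te) higher, beside 20.5% and 16.7% of all tested genes. In BAT 6 were higher in this way and 0 lower, beside 22.4% and 18.9%. Nothing particular to mt-Tp is read from this. The interaction of mt-Tp was 0.61 ± 0.21 (unadjusted p = 0.0244 in limma, adjusted p = 0.840), and that of mt-Te was -0.27 ± 0.15 (limma, adjusted p = 0.858). mt-Ti and mt-Tq rested on 0 to 6 and 0 to 3 reads in the iWAT libraries. mt-Tq had 0 reads in both H1.2AKO iWAT libraries, and no fold is given for it there.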

How the data were processed

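RNA-seq was made from pooled poly-T-selected RNA. The authors deposited FPKM values per gene with gene lengths; the submitters' processing notes name HISAT2 2.0.5, mm10 and GRCm38.p6, while the sources used here name no counter, annotation release or FPKM tool. FPKM, length and a library constant gave whole reads (tolerance 0.01, 100% of values), and that constant was 0.873 to 0.955 times the listed reads in BAT and 1.23 to 1.33 times in iWAT, so the depots are scaled differently. Values were analysed as log2(FPKM + 0.5) with limma 3.58.1 in R 4.3.3 (1 mean per depot and genotype, 8 libraries, trended moderation, genes with a mean of at least 0.5 FPKM, Benjamini-Hochberg adjustment over all tested genes), after a test on simulated data with 200 changed genes. The share of FPKM was tested by exact permutation (SciPy 1.17.1). Copies were found with BLAST+ 2.17.0 against GENCODE vM21 transcripts (at least 90% identity and 30 bases). The members, the gene lists and the tests were chosen with earlier results of these data known. Named genes are all mRNAs and rRNAs, the 4 highest and 2 lowest tRNAs, the copies in the chromosome 1 span and Hist1h1c. For each nuclear list the rule gave the 3 genes with the smallest p between depots in WT and the 2 with the smallest between genotypes. Only some of these are named, and from some lists none. Markers were named to describe the libraries, the chromosome 4 copies to show sequences and those on chromosomes 2 and 13 to show other matches. mt-Ta, mt-Ti, mt-Tm, mt-Tq, mt-Ts1 and mt-Tv were named after their values had been seen. Each library was left out in turn, and other pseudocounts, filters and scalings were tried.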

Additional observations from a re-analysis of the deposited data

How the results depend on the processing

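The count of members called higher in BAT ran from 26 to 31 in WT and 27 to 31 in H1.2AKO mice over the other settings, and from 23 to 32 and 27 to 29 with each library left out in turn. The lowest counts, 23, came without WT iWAT replicate 2 and without WT BAT replicate 1. All 7 mRNAs outside or across the edge of the chromosome 1 span stayed called in both genotypes with every library left out. Without a filter on low values 4 of the 7 were called in WT (not mt-Nd1, mt-Co1 and mt-Cytb) and 5 in H1.2AKO mice (not mt-Co1 and mt-Cytb), with the same fold changes as with the filter. Quantile normalization gave them medians of 0.68 in WT and 0.58 in H1.2AKO mice and put mt-Co1 at 0 by construction, because mt-Co1 ranks first in every library. A group reduced to 1 library took its spread from the rest of the design. The ratio of the FPKM shares ran from 2.71 to 2.91 with each library left out, each time with p = 0.0571, the smallest that 3 against 4 can give (exact permutation), and was 3.11 for reads. For genotype the counts were 0 to 1 in iWAT, 0 to 0 in BAT and 0 to 0 for the interaction. The 1 call, without WT iWAT replicate 2, was mt-Tm, which had 7 reads in the remaining WT library and 0 in both H1.2AKO libraries. For the mRNAs, both rRNAs and the 4 highest tRNAs, uncalled genotype values changed sign in 32 of 361 comparisons in iWAT, 28 of 342 in BAT and 24 of 399 for the interaction. The other tRNA genes were not counted there.

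Replicate numbers were shared between groups, but correlations of same-numbered libraries between the groups compared were -0.144 to 0.126, so the numbers were not taken as pairs. With the replicate block 30 members were called in WT, 31 in H1.2AKO mice and 0 for genotype in iWAT, in BAT and for the interaction. Of all genes it called 7443 of 14094 between depots in WT, 7489 of 14079 in H1.2AKO mice and 0 in the other comparisons. The crossed block in iWAT, added after seeing the data, also gave 0. The covariate, the copies added to their genes and the total-read denominator were added after seeing the data too. In each depot comparison 3 tRNA genes were under the minimum and were not tested.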
